A study of Arabidopsis thaliana with 28 samples.

Results

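The effect of losing DDM1 was measured in F1 seedlings with a Col mother and a C24 father, by comparing the ddm1-ColxC24 hybrid, whose parents both carry ddm1, with the WT-ColxC24 hybrid. Every gene with at least 1 RPM, the authors' normalised read count scaled to the same library total, in 3 of these 6 libraries was taken, which left 20739 of the 28437 genes in the table. Of the 7698 genes left out, 953 were at 0 in all 6 libraries. Col and C24 are natural accessions of Arabidopsis thaliana, and a hybrid name gives the mother first. RNA came from whole 2-week-old seedlings grown on agar under long days, with 3 libraries each of 8 genotypes: WT and ddm1 plants of Col, of C24, and of both reciprocal hybrids. Both groups compared here are F1 hybrids of the same cross, and they differ by labelled genotype at DDM1 on both parental sides. The study used several ddm1 alleles in each accession, and the labels of these libraries do not say which ones were crossed. It raised homozygous ddm1 stocks for up to 3 generations, so changes inherited from the mutant parents and changes arising in the F1 cannot be told apart.

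DDM1 is a chromatin remodeler that lets DNA methyltransferases reach DNA packed around histones. Without it, plants lose methylation at transposons and repeats, and many of these elements are transcribed. Some ordinary genes carry a methylated repeat or transposon in or next to the promoter and are silenced or kept active by the same system.

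The sequences below are shown because 2 of the classic methylation-silenced genes carry direct repeats just before their annotated start, while QQS, another such gene, does not in this window. Each is the 300 bases upstream of the annotated start on the strand of the gene, 5′ to 3′, from the RefSeq TAIR10.1 assembly, which is the Col sequence. The C24 sequence was not examined. Capitals mark every base inside a word of 15 bases that stands at 2 or more places of the window without overlapping itself.
SDC, chr2:7681862-7682161, + strand: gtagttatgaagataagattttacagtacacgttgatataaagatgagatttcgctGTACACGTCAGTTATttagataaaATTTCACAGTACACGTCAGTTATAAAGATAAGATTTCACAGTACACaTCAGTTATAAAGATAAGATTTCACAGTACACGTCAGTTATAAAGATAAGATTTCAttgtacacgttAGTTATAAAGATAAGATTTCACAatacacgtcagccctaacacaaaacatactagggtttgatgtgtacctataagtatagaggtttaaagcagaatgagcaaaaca
FWA, chr4:13038060-13038359, + strand: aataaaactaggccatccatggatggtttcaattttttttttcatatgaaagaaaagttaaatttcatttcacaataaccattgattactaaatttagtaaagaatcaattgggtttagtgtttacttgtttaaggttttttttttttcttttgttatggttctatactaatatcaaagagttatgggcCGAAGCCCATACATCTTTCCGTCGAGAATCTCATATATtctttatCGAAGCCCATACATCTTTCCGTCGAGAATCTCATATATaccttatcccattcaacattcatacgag
QQS, chr3:12348747-12349046, + strand: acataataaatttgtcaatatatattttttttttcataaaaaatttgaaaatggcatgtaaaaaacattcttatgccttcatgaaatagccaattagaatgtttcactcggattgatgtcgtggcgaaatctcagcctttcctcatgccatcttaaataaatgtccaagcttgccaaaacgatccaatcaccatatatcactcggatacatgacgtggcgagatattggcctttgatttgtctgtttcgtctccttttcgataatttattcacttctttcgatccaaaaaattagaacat
In SDC 139 of the 300 bases lay in such words, with up to 4 copies of 1 word, and in FWA 76 bases lay in 2 copies. Any repeated word of this length was found before 1508 of 27443 protein-coding genes (5.5%). It stood before 5.47% of the 768 protein-coding genes that were higher in the mutant hybrid and before 4.87% of those that were lower, both near the share of all genes. Among the 80 protein-coding genes at 0 in every WT library and at 1 RPM or more in every ddm1 library, 8 (10%) had one.

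All 3 of these genes were higher in ddm1-ColxC24. SDC encodes an F-box protein, and it had 0.1, 0.5 and 0.2 RPM in replicates 1, 2 and 3 of WT-ColxC24 and 22.1, 17.9 and 3.1 RPM in those of ddm1-ColxC24. Every mutant library lay above every WT library, although replicate 3 was far below the other mutant libraries. The log2 difference of SDC was 3.93 (SE 0.42), with a Benjamini-Hochberg adjusted p of 6.48e-05 from limma, a linear model fitted across all genes on log2(RPM + 0.5). FWA, a homeodomain transcription factor that delays flowering when it is active outside the endosperm, was listed at 0 in all 3 WT libraries and had 7.7, 10.4 and 11.2 RPM in the mutant ones (limma adjusted p 3.28e-08). QQS, a small Arabidopsis-specific protein that affects starch content, rose from 1.6, 2.7 and 4.2 RPM to 17.5, 40.6 and 53.9 RPM, a log2 difference of 3.44 (SE 0.13, limma adjusted p 2.02e-08). The groups of QQS did not overlap, and replicate 1 was the lowest library in both. Of the remaining listed genes, AT5G17125, annotated as a pseudogene, had 0.0, 0.0 and 0.1 RPM in WT and 5.4, 3.4 and 5.1 RPM in ddm1 (limma adjusted p 6.51e-07). BONSAI (BNS in the annotation), which in inbred ddm1 lines of Col can become methylated and silent, had 1.9, 5.3 and 7.4 RPM in WT and 1.5, 3.7 and 5.5 RPM in ddm1, and its groups overlapped (log2 difference -0.38, limma adjusted p 0.115). The list of genes silenced by methylation thus had 4 of 5 members higher, against 10.2% of all genes tested. SDC, FWA and AT5G17125 passed the filter only through their ddm1 libraries, so this share is fixed in part by the filter.

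Before the wider counts, the libraries were compared. RPM summed to between 999939.2 and 1000187.1 per library, depth is unknown, and between 2113 and 5906 genes were at 0. Libraries with the same replicate number deviated together. Residuals from the group means correlated at 0.82 to 0.882 within the 3 same-numbered pairs and at -0.723 to 0.003 between others. As the residuals of a group sum to 0, positive values within pairs force the others to be negative on average. The replicate number was a block in the model by the plan of the comparison. That the numbers mark separate plants or plates is not stated for the libraries. With the block, p-values measure how the ddm1 minus WT difference varied across the 3 replicate numbers. The spread shared by same-numbered libraries is taken out. The replicate 3 libraries stood apart in light- and clock-regulated genes. Photosynthetic and root markers overlapped between the groups, with summed levels of 28546.3 to 33895.7 RPM against 26827.3 to 31297.2 RPM for 5 green-tissue genes and 55.9 to 92.0 RPM against 63.2 to 102.2 RPM for 8 root genes. The DDM1 transcript (CHR1 in the annotation) did not separate the groups, with 5.8, 8.5 and 10.7 RPM in WT and 4.1, 5.6 and 8.6 RPM in ddm1. Its log2 difference was -0.44 (SE 0.12, limma adjusted p 0.0384), and without the block it was not past the threshold. A mutated gene can still be transcribed, so this transcript checks the labels only in part.

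Over all tested genes, 2119 were higher (10.2% of those tested) and 935 lower (4.51%) in ddm1-ColxC24 at a limma adjusted p under 0.05. Without the replicate block the counts were 1477 and 22. The 3 libraries of ddm1 lay above all 3 of WT in 1827 genes (8.81%) and below them in 535 (2.58%). Both conditions held for 1680 higher and 267 lower genes. The median log2 difference of all genes was -0.033. With 2 replicate pairs in place of 3, fewer genes were called. There were 437 higher and 453 lower genes without replicate 1, 216 and 184 without replicate 2, and 745 and 754 without replicate 3. The filter still asked for 1 RPM in 3 libraries, so a gene below 1 RPM in every remaining WT library was not tested. This left 18970, 18828 and 18665 genes tested, so the drop in higher genes is set in part by the filter.

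Transposable elements and other pseudogenes made up most of the rise. The annotation lists both under the biotype pseudogene, and all genes of this class are called elements below. The class held 1329 of the 2119 higher genes (62.7%) but 12 of the 935 lower ones (1.28%). It took 0.248, 0.22 and 0.236% of all RPM in replicates 1, 2 and 3 of WT-ColxC24 and 3.77, 3.66 and 3.78% in those of ddm1-ColxC24. No library of either group came near the other group. The number of these genes with at least 1 RPM was 205, 201 and 219 in WT and 1588, 1591 and 1669 in ddm1, out of 3543 in the table. Of the 1489 that passed the filter, most did so through the ddm1 libraries, so the share that rose is fixed in part by the filter. The share in ddm1-ColxC24 lay within the range of the ddm1-C24 libraries, 3.32 to 4.04%, and below the 4.33 to 4.65% of ddm1-Col. In the reciprocal ddm1-C24xCol it was 3.33 to 3.66%.

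**Figure D1:**
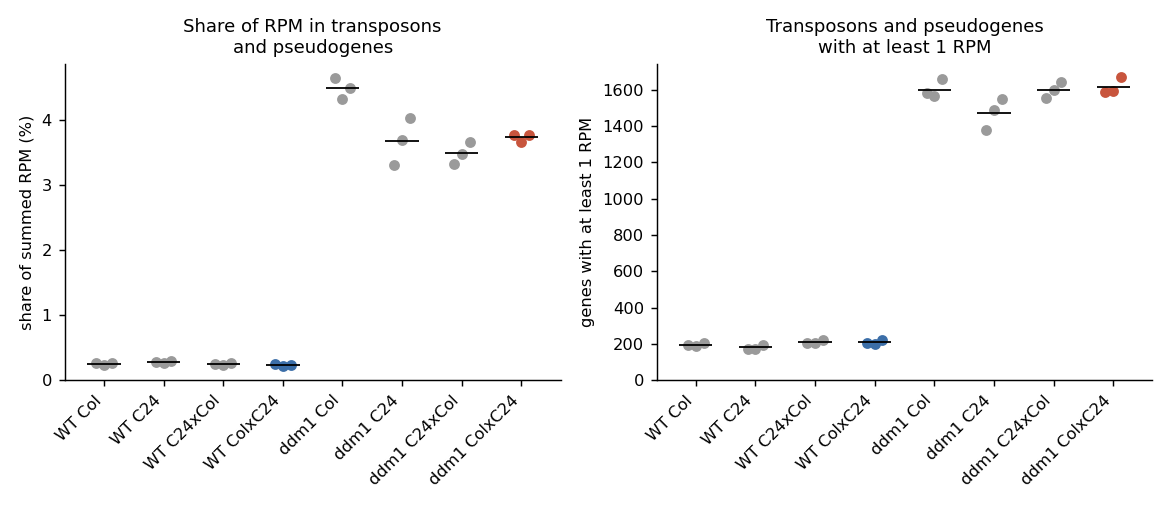
Each point is 1 library of the 8 genotypes, with the 2 hybrids of this cross in colour, and the line is the mean of 3. The left panel gives the percent of summed RPM in genes of the pseudogene biotype and the right panel how many of them had at least 1 RPM; the ddm1-ColxC24 libraries sit at 3.66 to 3.78% and the WT-ColxC24 ones at 0.22 to 0.248%.

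Many of these loci were undetected in WT. In all, 933 genes were listed at 0 in every WT-ColxC24 library and had at least 1 RPM in every ddm1-ColxC24 library, and 844 of them were of the pseudogene biotype. At 10 RPM or more in every ddm1 library there were 246 such genes, 235 of them pseudogenes. The reverse, 0 in every ddm1 library and at least 1 RPM in every WT one, was found for 0 genes. The median level of the 1329 higher elements was 0.0 RPM in WT and 8.87 RPM in ddm1. For an element at 0 in WT the size of the log2 difference is set by the mutant level and the added 0.5, so levels are given here. Reads of near-identical copies may have been split or dropped by the authors' counting, and the values of single elements are uncertain for that reason.

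The element with the largest rise, AT3G32230 on chromosome 3, had 0.0, 0.2 and 0.3 RPM in WT and 814.9, 775.8 and 1129.3 RPM in ddm1, a log2 difference of 10.42 (SE 0.11, limma adjusted p 3.35e-11). AT3G32240 reached 473.4, 416.4 and 518.0 RPM. On chromosome 1, AT1G36630 went from 0.1, 0.4 and 0.2 RPM to 762.1, 864.5 and 698.7 RPM. In these 3 elements the mutant libraries were far above the WT ones, and non-overlap was a condition for naming them. AT2G11780 on chromosome 2 varied more, with 585.1, 755.4 and 317.1 RPM in ddm1 against at most 0.1 RPM in WT. AT1G35300 varied likewise, with 209.7, 524.8 and 392.6 RPM, and so did AT4G06506, at 500.3, 320.5 and 207.9 RPM against 0 in every WT library. AT2G06720 had 207.3, 463.6 and 478.4 RPM and AT1G42050 had 317.5, 279.0 and 289.7 RPM in ddm1. For AT1G42050 the log2 difference was 9.12 (SE 0.12) in ColxC24, 9.83 in Col and 2.55 in C24, and the difference between ColxC24 and Col was not past the threshold (limma adjusted p 0.0612). That between ColxC24 and C24 was not tested. The 4 named pseudogenes that fell were low and fell by less. The annotation describes AT3G03855 as a pseudogene of a disease resistance protein and AT3G30122 as similar to a peptide chain release factor. AT2G04110 went from 16.7, 15.3 and 16.1 RPM to 6.5, 7.0 and 6.5 RPM (log2 difference -1.21, SE 0.11, limma adjusted p 1.67e-05). AT3G30122, AT2G26215 and AT3G03855 had log2 differences of -1.10, -0.81 and -0.53. Non-overlap of the groups was a condition for naming these 4. Of these 4, AT2G04110 alone also passed without the block.

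Transposons of Arabidopsis crowd around the centromeres, so the calls were also counted by position. In 18 of 121 windows of 1 Mb, over 50% of the annotated protein-coding and pseudogene loci were pseudogenes, and on each chromosome these windows were contiguous. Within them 930 of 960 tested elements were higher, and outside them 399 of 529. An element silent in WT was tested only if it reached 1 RPM in the ddm1 libraries, so both shares are fixed in part by the filter. Of the protein-coding genes inside the windows, 87 of 425 were higher (20.5%) and 47 lower (11.1%), against 681 (3.65%) and 857 (4.6%) of 18638 elsewhere. Protein-coding genes within 1000 bp of an annotated pseudogene were higher in 8.06% of cases and lower in 7.63%, and those more than 20000 bp away in 3.55% and 3.98%. Outside the transposon-rich windows these shares were 4.97 and 7.7% within 1000 bp and 3.54 and 3.96% beyond 20000 bp. A protein-coding gene silent in WT was likewise tested only if it reached 1 RPM in the ddm1 libraries. The shares of higher protein-coding genes by window and by distance are therefore fixed in part by the filter. These shares are descriptions, and genes of a neighbourhood are not independent.

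**Figure D2:**
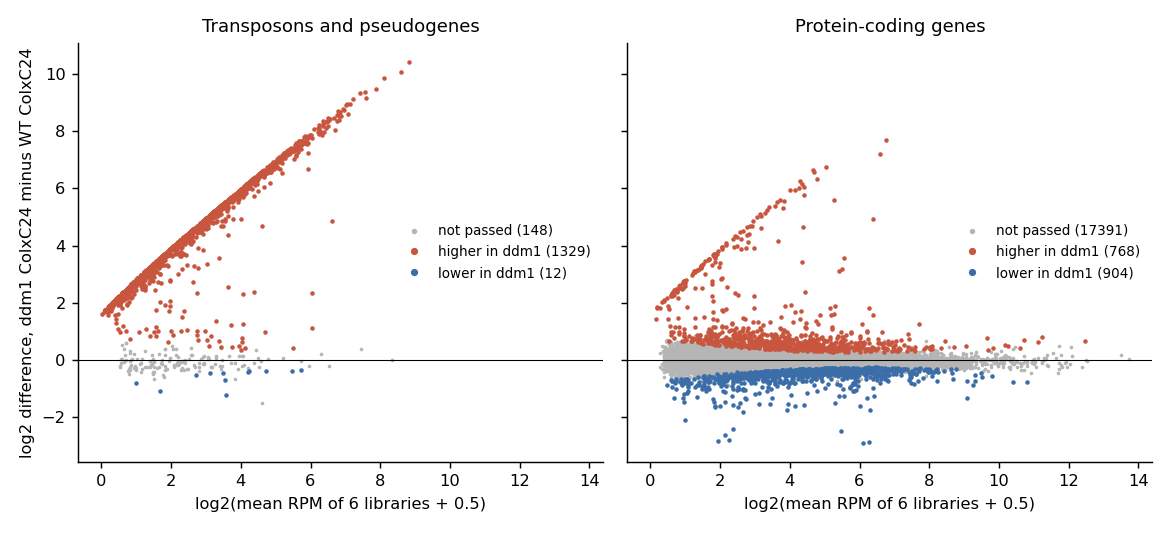
Each point is a tested gene, with the log2 of its mean RPM over the 6 libraries on the x axis and the log2 difference of ddm1-ColxC24 from WT-ColxC24 on the y axis. Elements (left) line up along the upper edge, where WT is at or near 0, with 1329 higher and 12 lower; protein-coding genes (right) hold 768 higher and 904 lower points, most of them within 1 log2 unit of 0.

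Protein-coding genes moved in both directions and mostly by little. Of 19063 tested, 768 were higher (4.03%) and 904 lower (4.74%). The median size of the called changes was 0.66 for the higher genes and -0.46 for the lower ones on the log2 scale. Over 1 log2 unit, 212 were higher and 65 lower, and over 2 units 134 were higher and 8 lower. Without the replicate block 160 of them were higher and 21 lower. Noncoding RNAs had 13 higher and 18 lower of 165 tested.

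The largest rises, taken among called genes whose groups did not overlap, were in genes that are almost silent in the WT hybrid. Of the 8 with the largest log2 difference, 6 are annotated only as uncharacterized proteins. AT1G59930, a MADS-box family gene, had 0.1, 0.1 and 0.0 RPM in WT and 471.1, 160.6 and 20 RPM in ddm1 (log2 difference 7.68, SE 0.59, limma adjusted p 4.62e-06). The 3 mutant libraries differed widely from one another yet all lay above WT. AT3G01345, of unknown function, was steadier, at 1.1, 0.5 and 0.6 RPM against 262.9, 106.9 and 198.1 RPM (log2 difference 7.20, SE 0.14, limma adjusted p 2.52e-10). AT5G35480, also uncharacterized, had 4.0, 6.4 and 3.4 RPM in WT and 90.5, 247.3 and 144.7 RPM in ddm1 (log2 difference 4.91, SE 0.16). The further uncharacterized genes AT4G08691, AT5G34869, AT3G29080, AT4G16215 and AT4G08593 reached 26.6 to 96.4 RPM in ddm1 libraries and had at most 0.3 RPM in WT. AT5G45570 encodes a Ulp1 protease family protein, a domain that some Arabidopsis transposons also carry, and it had 29.6, 41.6 and 49.1 RPM in ddm1 against at most 0.1 RPM. Another gene with this domain, AT4G08430, was listed at 0 in WT and had 10.8, 22.4 and 24.8 RPM in ddm1. Noncoding RNAs of chromosome 2 were also higher: AT2G06562 had 53.3, 40.7 and 46.4 RPM, AT2G15555 40.7, 55.4 and 66.3 RPM and AT2G05914 47.5, 35.0 and 50.2 RPM in ddm1, and none was above 0.3 RPM in WT.

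Some neighbours were called in the same direction. A run of 4 adjacent protein-coding genes on chromosome 5 (2388225 to 2400349, TAIR10.1) was called higher throughout, and it includes GRP19 and GRP20, glycine-rich proteins of the pollen coat. GRP19 went from 0.2, 0.1 and 0.1 RPM to 17.1, 10.7 and 11.2 RPM (log2 difference 4.39, SE 0.16, limma adjusted p 1.64e-08). GRP20 went from 0.3, 0.2 and 0.3 RPM to 7.0, 3.7 and 2.2 RPM. Next to them, AT5G07570, a glycine- and proline-rich protein, had 1.1, 0.8 and 1.2 RPM in WT and 99.7, 70.0 and 57.0 RPM in ddm1. The last of the run, AT5G07580, encodes an ethylene-responsive transcription factor that WT seedlings already expressed, and it had 18.1, 48.4 and 43.7 RPM against 42.2, 92.9 and 75.6 RPM (log2 difference 0.97, limma adjusted p 3.05e-05); its groups overlapped. The other run of 4 higher genes, AT2G11620, AT2G11623, AT2G11773 and AT2G11778, lay in a transposon-rich window of chromosome 2. Runs of 4 lower genes were found too, on chromosome 4: ENODL19 to STOMAGEN, UNE15 to AT4G13575 and AT4G22490 to AT4G22517. Among runs of 3 or more neighbours, more were lower than higher. How many runs would arise without any link between neighbours was not tested.

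Flowering genes were among those with the largest changes. FLC, the MADS-box repressor of flowering that C24 expresses and Col barely does, had 58.1, 79.5 and 85.0 RPM in WT-ColxC24 and 10.8, 12.4 and 14.9 RPM in ddm1-ColxC24. The groups were far apart, with a log2 difference of -2.49 (SE 0.09, limma adjusted p 9.64e-09). The authors' counting is not stated to use strand, so reads of the antisense transcript that overlaps FLC cannot be told apart from its own. AGL20, better known as SOC1, promotes flowering and is repressed by FLC, and it rose from 17.7, 17.4 and 11.2 RPM to 53.0, 61.4 and 48.1 RPM (log2 difference 1.80, SE 0.10, limma adjusted p 5.08e-07). FT, the mobile flowering signal, went from 0.0, 0.3 and 0.2 RPM to 1.6, 1.6 and 2.0 RPM (log2 difference 1.77, SE 0.21, limma adjusted p 0.000184). SEP3, which acts in floral meristems, went from 3.6, 3.5 and 1.8 RPM to 15.2, 13.1 and 6.9 RPM (log2 difference 1.80, SE 0.13, limma adjusted p 2.42e-06). In none of these 4 did the groups overlap.

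Relatives of FLC fell too. MAF1 had 12.6, 14.1 and 15.4 RPM in WT and 5.2, 7.1 and 8.2 RPM in ddm1 (log2 difference -1.0, SE 0.11, limma adjusted p 0.00012). MAF4 had 4.1, 2.1 and 2.3 RPM against 1.0, 1.4 and 1.4 RPM (log2 difference -0.88, limma adjusted p 0.0335), and AGL31, also called MAF2, had a log2 difference of -0.50 (limma adjusted p 0.0129) with overlapping groups. MAF3 and MAF5 were not past the threshold, at -0.29 and -0.49. In all, 2 of 10 tested flowering genes rose and 4 fell, with a median of -0.391, against 10.2 and 4.51% of all genes; without the block FLC, AGL20 and FT passed. SVP and CO were not called, at log2 differences of 0.18 and 0.21. Summed over 5 floral organ markers the level was 3.3 to 4.8 RPM in WT and 8.8 to 16.7 RPM in ddm1, most of it SEP3, while AP1 and AP3 stayed at or below 0.3 RPM. In whole seedlings, fewer cells of a type and less RNA per cell cannot be told apart.

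**Figure D3:**
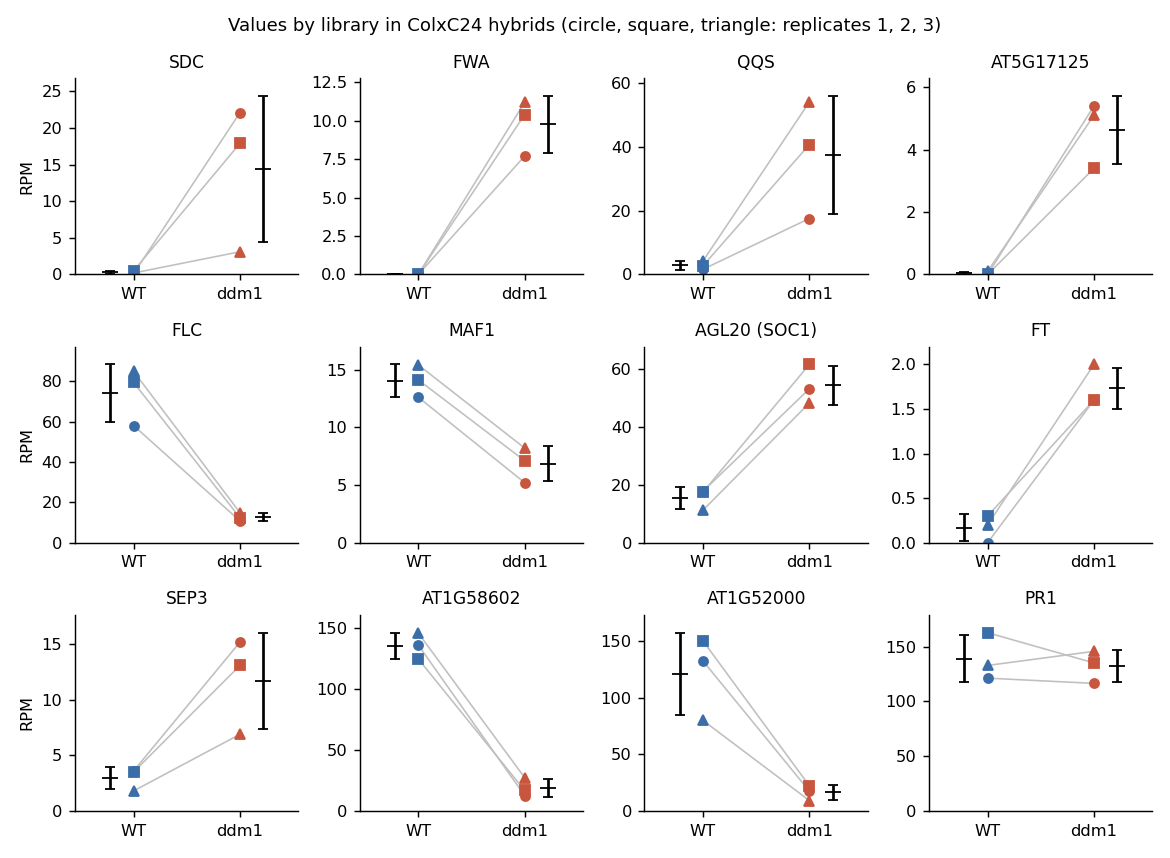
RPM of 12 genes in the 3 libraries of WT-ColxC24 (blue) and ddm1-ColxC24 (red), with grey lines joining the same replicate number and black bars giving the mean and SD. In 11 of the genes the groups do not overlap. PR1 lies at 121.3 to 162.8 RPM in WT and 116.5 to 145.8 RPM in ddm1. The 12 genes were selected for display, so the count of 11 describes the selection. Over all genes tested, ddm1 lay wholly above WT in 8.81% and wholly below in 2.58%.

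Lectin, receptor and secreted-protein genes were among the largest falls. AT1G52000, a mannose-binding lectin, had 132.6, 150.3 and 80 RPM in WT and 17.6, 22.3 and 9.2 RPM in ddm1 (log2 difference -2.89, SE 0.09, limma adjusted p 3.5e-09). Beside it on chromosome 1 the myrosinase-binding proteins MBP2 and MBP1 fell with log2 differences of -0.82 and -1.34. AT1G58602 encodes an immune receptor with a nucleotide-binding site and leucine-rich repeats, and it fell from 135.8, 124.4 and 145.6 RPM to 12.6, 16.8 and 27.3 RPM (log2 difference -2.88, SE 0.15, limma adjusted p 2.3e-07). AT4G07820, a secreted protein of the PR1 superfamily, had 3.5, 10.9 and 4.4 RPM against 0.2, 0.5 and 0.4 RPM. PRB1, a basic relative of PR1, had 12.5, 7.1 and 5.3 RPM against 1.6, 0.5 and 1.3 RPM (log2 difference -2.41, SE 0.22, limma adjusted p 2.23e-05). Non-overlap of the groups was a condition for naming AT1G52000, AT1G58602, AT4G07820 and PRB1. Each of these 4 also passed without the block.

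The largest changes in mean RPM included abundant transcripts with smaller log2 differences. GRP-3, a glycine-rich cell wall protein, had 1410.6, 2187.6 and 1519.0 RPM in WT and 659.5, 1396.7 and 1021.4 RPM in ddm1 (log2 difference -0.77, SE 0.13, limma adjusted p 0.0024). XTH4, which remodels cell wall xyloglucan, had 289.2, 238.2 and 197.4 RPM against 175.3, 127.2 and 103.3 RPM (log2 difference -0.85, SE 0.08, limma adjusted p 2.63e-05). NHL3, a membrane protein induced in defence, went the other way, from 124.2, 113.2 and 104.2 RPM to 276.3, 234.1 and 146.8 RPM (log2 difference 0.90, SE 0.12, limma adjusted p 0.000398). These 3 genes were named among those whose groups did not overlap, and none passed without the block.

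Among the genes named for the largest falls were AT2G42560 and AT3G17520. AT2G42560, a protein of the late embryogenesis abundant (LEA) family, had 1.9, 1.4 and 21.5 RPM in WT and 0.0, 0.0 and 0.7 RPM in ddm1 (log2 difference -2.80, SE 0.37, limma adjusted p 0.000372). AT3G17520, another LEA protein, had 2.4, 1.6 and 4.2 RPM against 0.2, 0.1 and 0.4 RPM (log2 difference -2.08, SE 0.20, limma adjusted p 2.76e-05). Of these LEA genes AT3G17520 alone also passed without the block. In C24xCol neither was called (log2 differences -0.5 and -0.62, limma adjusted p 0.186 and 0.0556). In C24 both were lower (-1.13 and -1.24, limma adjusted p 0.0239 and 0.0268). In Col their means were 0.233 and 0.4 RPM in WT and 0.567 and 0.733 RPM in ddm1. Over 13 seed markers, storage proteins and oleosins among them, the summed level was 148.8, 74.1 and 3.4 RPM in WT and 2.7, 3.5 and 1.2 RPM in ddm1, with CRU2, SESA1, SESA2, SESA3, SESA5 and EM1 at 0 in every ddm1 library. The seed sum was thus high in WT replicates 1 and 2 while WT replicate 3 lay within the ddm1 range, and both LEA genes were highest in WT replicate 3. One of the 13 passed the filter, M17, at 4.9, 7.6 and 1.5 RPM in WT and 1.1, 2.0 and 0.8 RPM in ddm1 (log2 difference -1.36, SE 0.23, limma adjusted p 0.00224), with overlapping groups. Of the 13 seed markers, 6 were called lower in C24xCol and 6 in C24, with median log2 differences of -1.38 and -1.16 over those tested. In Col 0 were called, with a median of 0.5. The part of seed RNA in these differences was not tested. COR15A, a chloroplast protein of cold tolerance beside AT2G42560, had 52.9, 76.3 and 53.9 RPM against 23.5, 32.2 and 35.4 RPM (log2 difference -1.0, limma adjusted p 0.000171).

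Calls among genes of DNA methylation and silencing are given beside 4.03% higher and 4.74% lower of all protein-coding genes tested. At those shares, lists this short can hold 0 or 1 call. Of 9 tested genes of methylation maintenance and 4 DNA demethylases, 0 passed in either direction. The same held for 7 tested genes of the RPP4 and RPP5 cluster, which are immune receptors and not silencing genes. The demethylase ROS1 (DML1 in the annotation) had 90.2, 54.4 and 70.9 RPM in WT and 65.8, 45.9 and 66.5 RPM in ddm1, a log2 difference of -0.26 (limma adjusted p 0.082), beside -4.37 in C24. In RNA-directed DNA methylation 1 of 21 passed, the chromatin remodeler CLSY1 (CHR38), at 11.1, 9.1 and 13.4 RPM against 14.4, 13 and 18.9 RPM (log2 difference 0.44, SE 0.10, limma adjusted p 0.0129), with overlapping groups. In post-transcriptional silencing it was AGO2 of 8 genes, at a log2 difference of 0.36 (limma adjusted p 0.0478). Among 9 histone genes the linker histone HIS1-3, which drought induces, was lower at -0.52 (SE 0.10, limma adjusted p 0.00371). PARP2, which marks DNA breaks, was the 1 gene of 6 called in the DNA damage list, at 7.2, 7.0 and 10.3 RPM in WT and 11.4, 11.0 and 16.9 RPM in ddm1 (log2 difference 0.64, SE 0.10, limma adjusted p 0.00168), and its groups did not overlap. None of these calls passed without the block.

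Salicylic acid (SA) is the defence hormone the study follows in these hybrids, and its synthesis genes and their regulators were read as a list. Of 10 tested, 3 were higher (30.0%) and 0 lower, with a median log2 difference of 0.248, against 4.03% higher and 4.74% lower of all protein-coding genes tested. EDS16, isochorismate synthase 1, which makes the SA precursor, had 18.9, 21.3 and 20.4 RPM in WT and 25.5, 24.3 and 38.8 RPM in ddm1, with no overlap (log2 difference 0.51, SE 0.13, limma adjusted p 0.0264). CBP60G, a transcription factor that activates it, had 18.2, 20.1 and 15.4 RPM against 27.9, 26.9 and 25.5 RPM, also with no overlap (log2 difference 0.57, SE 0.09, limma adjusted p 0.00183). PBS3, which conjugates isochorismate, had 10.1, 9.5 and 15.4 RPM against 14.9, 11.9 and 31.3 RPM, and its groups overlapped (log2 difference 0.62, SE 0.13, limma adjusted p 0.0109). The others lay between -0.27 and 0.27 on the log2 scale: ICS2 at 0.25, the transporter EDS5 at 0.17, the acyltransferase EPS1 at -0.27, the immune regulators EDS1, PAD4 and SAG101 at 0.25, 0.27 and 0.14, and the transcription factor SARD1 at 0.24. Their adjusted p ran from 0.0916 for PAD4 to 0.528 for SAG101 in limma. FMO1, the last enzyme of N-hydroxypipecolic acid synthesis, was 1 of 3 higher in its pathway, at 6.3, 7.0 and 4.2 RPM against 8.9, 8.8 and 11.3 RPM (log2 difference 0.70, SE 0.18, limma adjusted p 0.0311).

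On the side of SA removal and response the calls were mixed, beside 4.03% higher and 4.74% lower of all protein-coding genes tested. UGT74F2, which glucosylates SA, fell from 113.2, 99.1 and 171.3 RPM to 67.3, 57.2 and 126.8 RPM (log2 difference -0.66, SE 0.09, limma adjusted p 0.000458); it was lower within each replicate number although the groups overlapped. It was the 1 gene of 5 called in SA turnover, and NIMIN-3, a partner of the SA receptor NPR1, was the 1 of 6 called among NPR and NIMIN genes (log2 difference -0.43, limma adjusted p 0.029). PR1, the standard marker of SA response, had 121.3, 162.8 and 132.9 RPM in WT and 116.5, 135.2 and 145.8 RPM in ddm1 (log2 difference -0.06, SE 0.09, limma adjusted p 0.714). PR2 (BGL2), a glucanase, had 127.4, 62.8 and 89.0 RPM against 138.8, 82.9 and 80.1 RPM (log2 difference 0.12, limma adjusted p 0.506). PR5, a thaumatin-like protein, rose within each replicate number, from 9.8, 12.2 and 22.1 RPM to 14.5, 17.9 and 26.0 RPM (log2 difference 0.44, SE 0.10, limma adjusted p 0.0182). None of the SA calls passed without the block.

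WRKY transcription factors, many of which respond to SA and to stress, had 5 of 10 higher (50%) and 0 lower, against 4.03 and 4.74% of protein-coding genes. WRKY40 had 8.9, 8.9 and 7.3 RPM in WT and 31.6, 43.4 and 16.7 RPM in ddm1 (log2 difference 1.71, SE 0.17, limma adjusted p 4.27e-05), and it alone of the list also passed without the block. WRKY46 went from 5.5, 3.3 and 6.6 RPM to 9.8, 9.7 and 15.3 RPM (1.12, SE 0.14, on the log2 scale). WRKY53 went from 4.9, 2.4 and 3.2 RPM to 11.2, 7.5 and 5.7 RPM (1.11, SE 0.16, on the log2 scale). In these 3 the groups were separate, and in WRKY18 (0.59) and WRKY70 (0.38) they overlapped. In other defence lists, 2 of 5 camalexin genes were higher, PAD3 at 0.59 and CYP71A12 at 0.48, and of the 19 tested kinases of the CRK cluster on chromosome 4, whose reads may be shared between copies, 3 were higher and 2 lower, all with overlapping groups.

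Jasmonate genes, which mark the response to wounding, had 4 of 11 lower (36.4%) and 2 higher (18.2%), against 4.74% lower and 4.03% higher of protein-coding genes. VSP1, a vegetative storage protein, had 97.6, 42.0 and 37.7 RPM in WT and 25.3, 14.7 and 17.3 RPM in ddm1, with no overlap (log2 difference -1.50, SE 0.14, limma adjusted p 1.79e-05). LOX2, the lipoxygenase that starts jasmonate synthesis in chloroplasts, had 1166.2, 562.0 and 638.9 RPM against 498.2, 252.5 and 528.1 RPM, again with no overlap (log2 difference -0.88, SE 0.17, limma adjusted p 0.00465). AOC2 and OPR3, later enzymes of the pathway, were lower at -0.67 and -0.30 with overlapping groups. The regulators MYC2 and JAZ1 were higher, MYC2 from 68.0, 78.8 and 80 RPM to 112.7, 135.6 and 99.2 RPM (log2 difference 0.60, SE 0.10, limma adjusted p 0.00195). Anthocyanin genes had 0 of 9 higher and 4 lower: GSTF12, needed to store the pigment, had 4.7, 4.6 and 10.6 RPM against 1.6, 1.5 and 7.6 RPM (log2 difference -1.04, SE 0.19, limma adjusted p 0.00376), and DFR, AT4G14090 and TT4 had -0.80, -0.69 and -0.31. No jasmonate or anthocyanin call passed without the block.

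Several light- and clock-regulated genes differed more between replicate numbers than between genotypes. CAB2, a chlorophyll-binding protein of the antenna, had 1733.7, 2317.6 and 79.1 RPM in WT and 2832.6, 2983.8 and 164.5 RPM in ddm1, so replicate 3 was low in both groups. Within each replicate number ddm1 was higher (log2 difference 0.71, SE 0.13, limma adjusted p 0.0048). Of 18 light-harvesting genes 8 were higher (44.4%) and 1 lower (5.56%), against 4.03 and 4.74% of protein-coding genes, with a median of 0.48. The lower one, LHCB4.3, was high in replicate 3, with 14.5, 26.4 and 189.6 RPM in WT and 9.7, 13.9 and 92.9 RPM in ddm1. The growth regulator PIL6, also called PIF5, had 149.9, 74.5 and 10.6 RPM in WT and 186.9, 111.4 and 20.9 RPM in ddm1 (log2 difference 0.61, SE 0.11, limma adjusted p 0.00377). YUC8, an auxin synthesis enzyme, was the other of 2 higher genes among 7 of the PIF and auxin list (log2 difference 0.86, limma adjusted p 0.0186). In the clock list 2 of 9 were higher, CCA1 (0.86) and PRR5 (0.28), and ELF4 was lower (-0.61). The groups overlapped in every called gene of these 3 lists, and none passed without the block. Harvest times are not given in the sources used here, and the part of the hour of harvest was not tested.

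**Figure D4:**
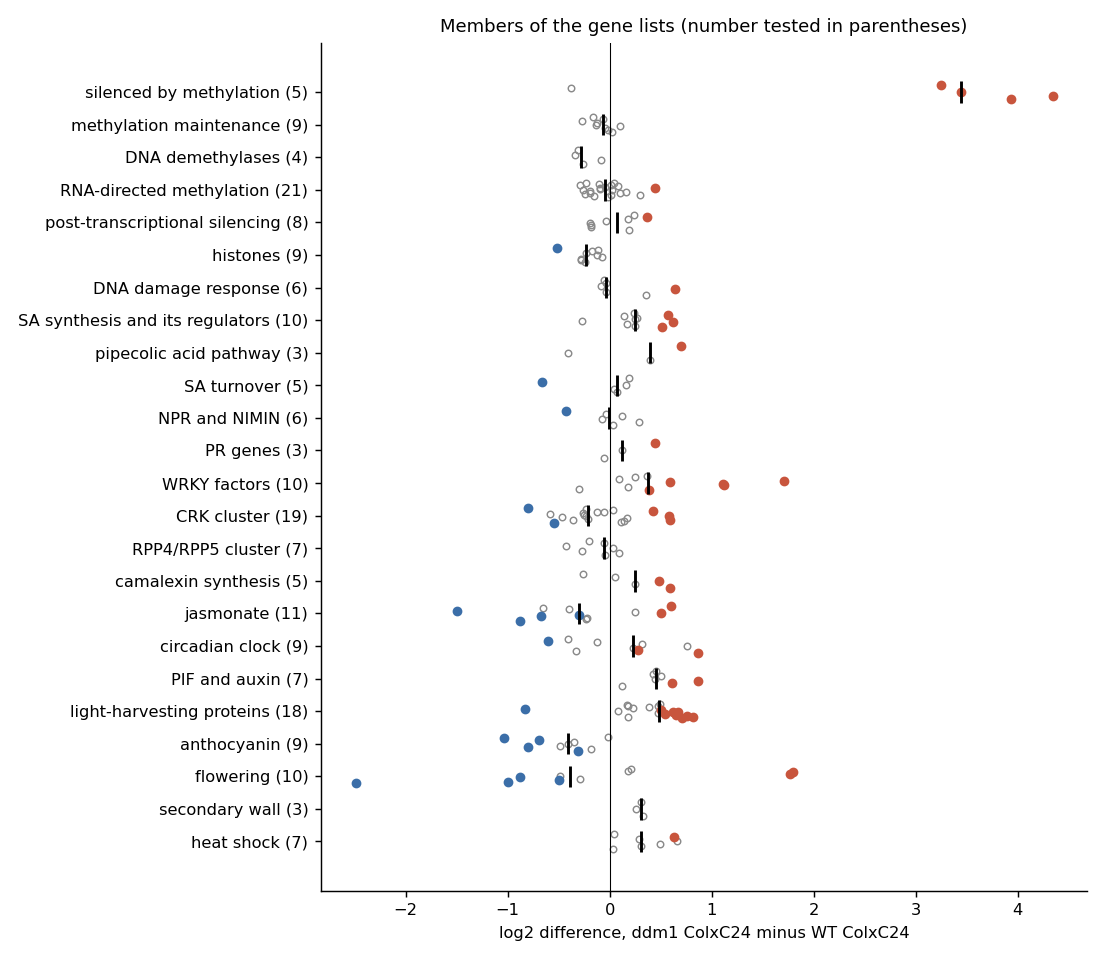
Each circle is a tested member of a gene list, placed by its log2 difference of ddm1-ColxC24 from WT-ColxC24 on the x axis, filled where the limma adjusted p was under 0.05 and open where it was not; black bars are list medians. SDC lies at 3.93 and FLC at -2.49, and apart from the genes silenced by methylation the medians of the plotted lists, which leave out the tissue markers, lie between -0.408 and 0.48.

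Heat shock genes had 1 of 7 higher, against 4.03% higher and 4.74% lower of protein-coding genes. This was HSP70, from 59.7, 46.6 and 53.2 RPM to 120.5, 81.3 and 56.0 RPM (log2 difference 0.63, SE 0.15, limma adjusted p 0.0193), with overlapping groups. It did not pass without the block. The 3 cellulose synthases of the secondary wall were not called, at 0.26 to 0.33.

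The same contrast in the reciprocal cross shares no library with this one, so it can be set beside it. Relative to WT-C24xCol, ddm1-C24xCol had 1665 higher and 423 lower genes. Of the 2119 genes higher in ddm1-ColxC24, 1528 were also higher there (72.1% of this list and 91.8% of the other), and of the 935 lower genes 242 were also lower (25.9 and 57.2%). Elements were shared most, with 1251 of 1329 (94.1 and 96.8%), while for higher protein-coding genes it was 258 of 768 (33.6 and 72.9%). A test of the difference itself found 1 of 21517 genes (0.00465%) whose ddm1 effect differed between the crosses at a limma adjusted p under 0.05, while 1308 had an unadjusted p under 0.05. That gene was PR1. In WT-C24xCol it had 91.0, 92.3 and 104.0 RPM and in ddm1-C24xCol 204.3, 262.0 and 209.9 RPM, a log2 difference of 1.22 there beside -0.06 in ColxC24 (difference of the effects -1.29, limma adjusted p 0.0341). Without the block, without the filter or the trend, with all 24 libraries in 1 fit or without any 1 replicate, 0 genes differed. FLC and AGL20 had log2 differences of -2.36 and 1.86 in C24xCol, beside -2.49 and 1.80 in ColxC24.

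Against the Col parent the ddm1 effect in the hybrid differed for 324 of 21605 genes (1.5%), more positive in ColxC24 for 149 and more negative for 175. Of these, 225 were of the pseudogene biotype and 94 protein-coding. The levels in both parents are given beside them as a description. Among the 107 elements with the more positive effect, the median level was 0.933 RPM in ddm1-Col, 13.4 RPM in ddm1-C24 and 7.7 RPM in ddm1-ColxC24, and 80 were more than 5 times higher in ddm1-C24 than in ddm1-Col. Among the 118 with the more negative effect the order was turned, with 22.1 RPM in ddm1-Col, 2.25 RPM in ddm1-C24 and 10.5 RPM in ddm1-ColxC24, and 72 were more than 5 times higher in ddm1-Col. By these medians the hybrid lay between its mutant parents in both sets. Its order relative to ddm1-Col was set in part by how the sets were chosen. Over all 1329 elements that rose, the difference on the log2(RPM + 0.5) scale between ddm1-ColxC24 and the mean of ddm1-Col and ddm1-C24 had a median of 0.0 (quartiles -0.2 and 0.16), and 1256 (94.5%) lay within 1 log2 unit.

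Single genes show how the parents differed. AT3G42086, an element listed at 0 or 0.1 RPM in all WT libraries, stayed at or below 0.1 RPM in ddm1-Col, reached 40.5, 57.9 and 68.6 RPM in ddm1-C24 and 19.7, 24 and 27.8 RPM in ddm1-ColxC24. AT5G26345 was instead a locus that WT-C24 already expressed, at 45, 41.2 and 43.8 RPM, and WT-Col did not, at 0.0, 0.1 and 0.1 RPM. It had 18.1, 15.3 and 17.9 RPM in WT-ColxC24 and rose to 28.8, 36.1 and 37.4 RPM in ddm1-ColxC24, a log2 difference of 0.97 (SE 0.11, limma adjusted p 0.000136) against 5.55 in Col (difference of the effects -4.58, limma adjusted p 1.56e-08). AT3G44215 behaved alike, at 32.7, 17.3 and 15.3 RPM in WT-ColxC24 and 132.5, 91.2 and 101.2 RPM in ddm1-ColxC24 (log2 difference 2.35, SE 0.12), with WT-Col at 0.1 RPM in each library and ddm1-Col at 220.2, 140.2 and 171.4 RPM (difference of the effects -5.84, limma adjusted p 1.92e-08). In C24 the ddm1 effects of AT5G26345 and AT3G44215 were -0.11 and 0.0 on the log2 scale, neither past the threshold. With WT-Col at or near 0, the sizes of the differences from Col depend on the added 0.5.

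The immune receptor AT1G58602 was high in WT-Col (155.7, 194.6 and 227.5 RPM), low in WT-C24 (28.8, 17.7 and 20.6 RPM) and had 124.4 to 145.6 RPM in WT-ColxC24. Its log2 difference was -4.49 in Col, -0.01 in C24 and -2.88 in ColxC24, and the difference between ColxC24 and Col was not past the threshold (limma adjusted p 0.57). FLC had 0.6 to 0.8 RPM in WT-Col and 62.5, 76.1 and 92.7 RPM in WT-C24, and WT-ColxC24 overlapped with WT-C24. Its log2 difference of -2.49 in ColxC24 lay beside -2.43 in C24. In ddm1-Col it had 0.1, 0.0 and 0.2 RPM, so near 0 that the added 0.5 limits the difference in Col, and the effects in Col and ColxC24 are not compared. AGL20 rose in ColxC24 but had a log2 difference of 0.06 in Col, and the difference of the effects passed the test (limma adjusted p 3.34e-06). MAF1 went the other way, with -1.0 in ColxC24 and -2.75 in Col (limma adjusted p of the difference 8.32e-06).

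**Figure D5:**
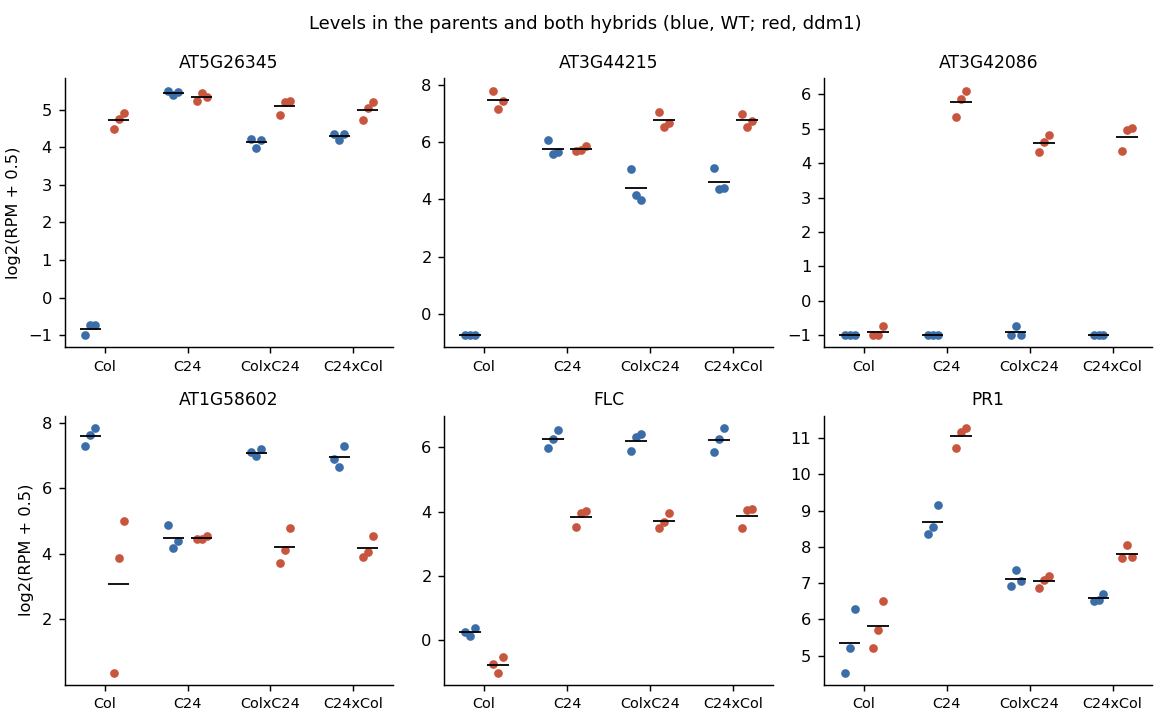
Levels of 6 genes as log2(RPM + 0.5) in WT (blue) and ddm1 (red) libraries of both parents and both hybrids, with lines at the mean of 3 libraries. AT5G26345 and AT3G44215 lie between WT-Col and WT-C24 in WT-ColxC24, AT3G42086 appears in ddm1-C24 and the ddm1 hybrids, and PR1 separates WT from ddm1 in C24xCol and C24 but not in ColxC24.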

How the data were processed

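Whole-seedling RNA was sequenced by the study as paired reads, aligned to TAIR10 with TopHat and counted per gene with HTSeq, per the labels and the study's methods. The deposited table gives RPM, scaled by the authors, as multiples of 0.1. Counts could not be recovered and depth is unknown, so no count model was used. Strand and multi-mapping settings are not given in the sources used here, and near-identical copies or overlapping genes are uncertain.

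Genes with at least 1 RPM in 3 libraries were fitted in limma 3.58.1 (R 4.3.3, trend) on log2(RPM + 0.5), blocked on replicate number, and p-values were adjusted by Benjamini-Hochberg across every gene tested. The block was set in the plan of the comparison, and the correlation of same-numbered libraries is given above. Differences between ddm1 effects were interaction terms over 12 libraries. The script was tested on simulated data. The other RNA columns of the table served for the parents, the reciprocal cross and the fit of all 24 libraries. Fold changes understate low genes.

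Named genes were, among those with an adjusted p under 0.05 and no overlap, the 8 protein-coding genes with the largest log2 difference in each direction, 8 higher and 4 lower pseudogenes, 3 noncoding RNAs each way, and the 4 protein-coding genes with the largest changes in mean RPM each way. To these were added, without those conditions, the 3 lowest adjusted p of each interaction, up to 5 members of each list (called members first), DDM1, and every member of 3 lists. Further genes named (run neighbours, other called list members, flowering and clock genes) were chosen after their values were seen. The comparison and the gene lists were chosen with earlier results of these data known. Symbols and positions are from RefSeq TAIR10.1, which matched 28331 of 28437 genes. Transposon superfamilies could not be grouped from its notes. Alternatives were no block, other pseudocounts, no filter, median-ratio rescaling, all 24 libraries in 1 fit, no trend, a fold threshold, and leaving out each replicate. Python 3.11.15, pandas 2.3.3, numpy 2.4.6 and matplotlib 3.10.9 were used.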

Additional observations from a re-analysis of the deposited data

Results flagged for a closer look

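The ddm1 effect differed between ColxC24 and the reciprocal C24xCol for 1 gene by the interaction test, PR1, with a difference of -1.29 on the log2 scale (limma adjusted p 0.0341).

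The ddm1 effect differed between ColxC24 and the Col parent for 324 genes by the interaction test. The 3 with the lowest adjusted p were AT5G26345, at -4.58 on the log2 scale, AT3G44215, at -5.84, and AT3G42086, at 5.42.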

How the results depend on the processing

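Without the replicate block 1477 genes were higher and 22 lower, against 2119 and 935 with it, and with rescaling as well 1475 and 28. The lower genes numbered 310 without the filter, 513 without the trend and 67 over 1 log2 unit. Leaving out 1 replicate number gave 216 to 745 higher and 184 to 754 lower genes. The filter was unchanged there, so genes below 1 RPM in every remaining WT library were not tested. Rescaling alone gave 2269 higher and 666 lower genes. Rescaling moved the median difference of all genes from -0.033 to 0.009. The 1 gene that differed from C24xCol became 0 without the block, without the filter, with all 24 libraries in 1 fit, without the trend and without any 1 replicate. The 324 that differed from Col became 100 without the block and 41 to 210 without 1 replicate. No named gene reversed under these alternatives. The causes were not tested. Depth is unknown, so a gene at 0 was not detected rather than absent.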
